A study of Drosophila melanogaster with 6 samples.

Results

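Small heat shock genes and partner chaperone genes of muscle were examined in the body wall of Drosophila melanogaster larvae with and without a knockdown of Mad in muscle. Mad is the Smad protein that enters the nucleus to switch genes when a bone morphogenetic protein binds its receptor. The genes were chosen by symbol. The names were Hsp22, Hsp23, Hsp26, Hsp27, Hsp67Ba, Hsp67Bc, CryAB, l(2)efl, stv and Unc-45, of which CryAB and l(2)efl name one gene, so that 9 genes were sought. Of the 17807 genes in the table, 8 were members. No row was listed under Unc-45, and that gene was not analysed here.

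Each group held 3 libraries of polyadenylated RNA from wandering third-instar larvae, the stage that leaves the food before pupariation. The libraries were made from lysates enriched for muscle, each pooled from 6 to 10 larvae. The Mad knockdown group had the genotype Dmef2-Gal4>UAS-madRNAi and the control group Dmef2-Gal4>UAS-mCherryRNAi. All 6 libraries therefore carry the Dmef2-Gal4 driver, which is active in muscle from the embryo on, and a hairpin. The control hairpin is directed against mCherry, a foreign fluorescent protein with no gene in the fly. The groups differ in the UAS transgene as well as in its target, and effects of the 2 cannot be told apart. Whether the replicates came from separate crosses is not stated, so p-values measure the spread between these samples.

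Small heat shock proteins share an alpha-crystallin domain and hold unfolding proteins in large oligomers without using ATP, until the Hsp70 machinery can refold them or autophagy removes them. In Drosophila several of their genes lie side by side at cytological position 67B. They are induced by heat through the heat shock factor Hsf, and some also by the moulting hormone ecdysone at the end of larval life. In muscle, small heat shock proteins and the co-chaperone starvin act at the Z-disc, where filaments under tension wear out their proteins.

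The deposited values are gene counts scaled to 1 size factor per library, called normalized counts here. Recovered counts ran from 96639921 to 127220949 per library, so for the tested members the spread between replicates sets the precision. Where 3 values are given for a group, they are in the order of the replicate number. Mad had normalized counts of 7533, 7658 and 7010 in controls and 4348, 5643 and 5053 after Mad knockdown, with no overlap. It differed by -0.57 on the log2 scale (SE 0.102; BH-adjusted p = 0.0440 in limma, where BH stands for Benjamini-Hochberg), with no call in edgeR (BH-adjusted p = 0.0516). DESeq2 called Mad lower (BH-adjusted p = 1.1e-04). The limma call was lost in 5 of the 6 limma fits that left out 1 library, where the adjusted p ran from 0.0443 to 0.143, and it held without Mad knockdown replicate 2. The labelled tissue was checked with 14 muscle genes, which took from 2.75% to 3.56% of the normalized counts in control libraries and from 1.32% to 2.01% after Mad knockdown. A list of 10 epidermal and cuticle genes took more, from 7.81% to 10.4% over both groups, and fat body markers from 0.0465% to 0.0760%. Blood cell markers summed to between 212613 and 282815 normalized counts in controls and between 174629 and 201454 after Mad knockdown, with no overlap. Of these 9 genes 5 did not overlap, against 24.6% of all tested genes. Calls among them numbered 0 in limma and edgeR. DESeq2 called 3 lower, against 9.86% of genes called in either direction. NimC1 and He had higher means after Mad knockdown, at 146% and 108% of control, with overlap. Of 6 tracheal genes 0 were called in the 3 tools, and their sums overlapped. The tracheal genes serp and verm were at 46.8% and 37.7% of their control means with no overlap. In the other direction, trh and btl were at 117% and 109% with no overlap, and pio and vvl at 103% and 126% with overlap. Salivary glue genes summed to between 340 and 3240 normalized counts in controls and between 40.2 and 181 after Mad knockdown. Of 6 tested glue genes 5 did not overlap, against 24.6% of all tested genes, and limma and edgeR called 0. DESeq2 called 4 lower (Sgs3, Sgs5, Sgs7 and Eig71Ee), against 9.86% of genes called in either direction. With the replicate number as a block, limma called 2 lower (Sgs3 and Sgs5). Midgut genes summed to 6821 in Mad knockdown replicate 3 against at most 185 elsewhere. The part of these tissues in the results below was not tested. The lysates were thus mixtures, and in such bulk samples fewer muscle cells and less RNA per cell cannot be told apart.

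None of the members was called after Mad knockdown in limma or edgeR, and DESeq2 called 2 of them lower. The limma fit covered the 10348 genes that reached 10 normalized counts in 3 or more libraries, and the threshold for a call was a BH-adjusted p of 0.05. Of the 8 members, 7 passed the filter, and 0 of these 7 were called, where 2.59% of all tested genes were called. Before adjustment 2 members, l(2)efl and Hsp26, had a p-value under 0.05, both with lower means after Mad knockdown, and 19.0% of all tested genes had such a p-value. edgeR called 0 members, against 2.44% of all genes. DESeq2 called these 2, against 9.86% of the genes to which it gave an adjusted p-value. The groups did not overlap for l(2)efl and Hsp26, which are 28.6% of the 7, against 24.6% of all tested genes. The median log2 fold change of the 7 was -0.22, with 5 negative and 2 positive, and that of all tested genes was 0.0054. The share of members without overlap is near the background, the share called in DESeq2 is above it, and both rest on the same 2 of 7 genes. As none passed the adjusted threshold in limma, the intervals below give what the data allow.

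**Figure D1:**
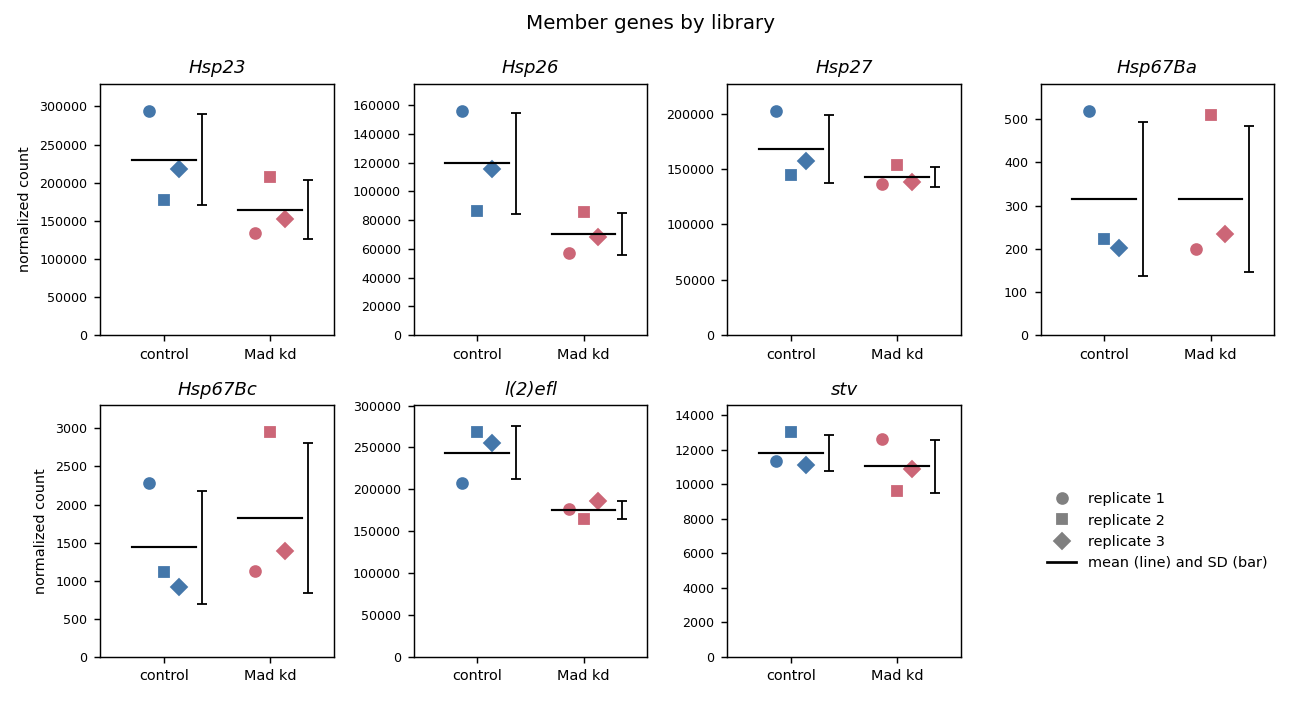
Normalized counts (linear axes from 0) of the 7 tested members in each library, by group, with symbols for the replicate number, a line at the group mean and a bar of 1 SD (n = 3). The groups are apart for l(2)efl and, by a narrow gap, for Hsp26, and both Hsp67B genes are high in control replicate 1 and Mad knockdown replicate 2.

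The member with the lowest adjusted p-value was l(2)efl (FBgn0011296, chromosome 2R, 23684651 to 23685543, minus strand, dm6). It is also called CryAB and encodes a small heat shock protein of muscle that associates with filamin at the Z-disc. Its normalized counts were 208014, 268006 and 254901 in controls and 176163, 164117 and 186295 after Mad knockdown. Every Mad knockdown library was below every control library, and control replicate 1 was the nearest to them. The mean was 243640 ± 31542 (SD, n = 3) in controls and 175525 ± 11103 after Mad knockdown, which is 72.0% of control. On the log2 scale the change was -0.47 (SE 0.128, 95% interval -0.77 to -0.16; limma, BH-adjusted p = 0.115). With 6 values the exact permutation test, two-sided, gave p = 0.1, and groups of 3 allow no smaller one. The BH-adjusted p was 0.109 in edgeR and 0.00209 in DESeq2. Exons of St3, on the opposite strand, cover 10.1% of its exon bases.

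The level of l(2)efl was also set against the muscle list, since the sum of that list was lower in every Mad knockdown library. The list did not fall evenly. The abundant Mhc, Act57B and Mlc2 were at 29.3%, 46.8% and 45.8% of their control means. By contrast sls, Msp300 and Mef2 were at 78.4%, 92.1% and 110% with overlap. The other 11 genes, 78.6% of the list, did not overlap, against 24.6% of all tested genes. In limma 4 of the 14 muscle genes (Act87E, Mlp60A, Prm and Tm2) were called lower and 0 higher, with a median log2 fold change of -0.80, and 1.57% of all tested genes were called lower. The number called in this list was 0 when any control replicate was left out and 1 (Act87E) without Mad knockdown replicate 1 or 2. Without Mad knockdown replicate 3 it was 2, Tm2 and Mlc2, of which Mlc2 was not among the 4. Per 100 counts of the summed muscle list, l(2)efl had 4.95, 8.47 and 7.52 counts in controls and 8.39, 10.8 and 8.41 after Mad knockdown. These values overlapped between the groups with means of 6.98 ± 1.82 and 9.19 ± 1.36 (SD, n = 3), in the opposite order to the normalized counts. The exact two-sided permutation p of this ratio was 0.3, and 0.45 after BH adjustment over the muscle ratios of l(2)efl, stv and Hsp26. Because the sum follows its most abundant genes, this ratio does not measure muscle content. The part of the muscle content of the lysates in the level of l(2)efl was not tested.

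Starvin (stv, FBgn0086708, chromosome 3L, 13477541 to 13483515, plus strand) is the fly member of the BAG family that couples Hsc70 to small heat shock proteins and to the autophagic removal of worn filamin. Its normalized counts were 11336, 13023 and 11151 in controls and 12648, 9611 and 10878 after Mad knockdown. The groups overlapped, with the highest library in one group and the second highest in the other. The fitted change was -0.11 on the log2 scale (SE 0.115, 95% interval -0.38 to 0.17; limma, BH-adjusted p = 0.686). That interval leaves out a change of 1 on the log2 scale in either direction. The fitted change was -0.0096 without Mad knockdown replicate 2, -0.035 without control replicate 2 and -0.21 without Mad knockdown replicate 1. Per 100 counts of the muscle list, stv had 0.270, 0.412 and 0.329 counts in controls and 0.602, 0.630 and 0.491 after Mad knockdown, which did not overlap (exact two-sided permutation p = 0.1, BH-adjusted 0.3). The muscle list sum alone ran from 3163474 to 4199746 in controls and from 1524882 to 2214621 after Mad knockdown. A gene with unchanged counts would also separate in such a ratio, so the ratio gives no result for stv beyond its counts.

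The other 6 members lie within one stretch of chromosome 3L, the 67B cluster, and were read together. From left to right these are Hsp67Bc (9371511 to 9372497, minus strand), Hsp22 (9372931 to 9374964, plus), Hsp26 (9376418 to 9377427, minus), Hsp67Ba (9377802 to 9379534, minus), Hsp23 (9381882 to 9382765, plus) and Hsp27 (9384063 to 9385694, plus). The genes CG4456, CG4461 and asRNA:CR43481 lie among them. The abundant Hsp26 and the scarce Hsp67Ba are neighbours on the same strand. In the annotation each transcript of the 5 genes other than Hsp22 is a single exon, whereas all transcripts of stv and l(2)efl are spliced.

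**Figure D2:**
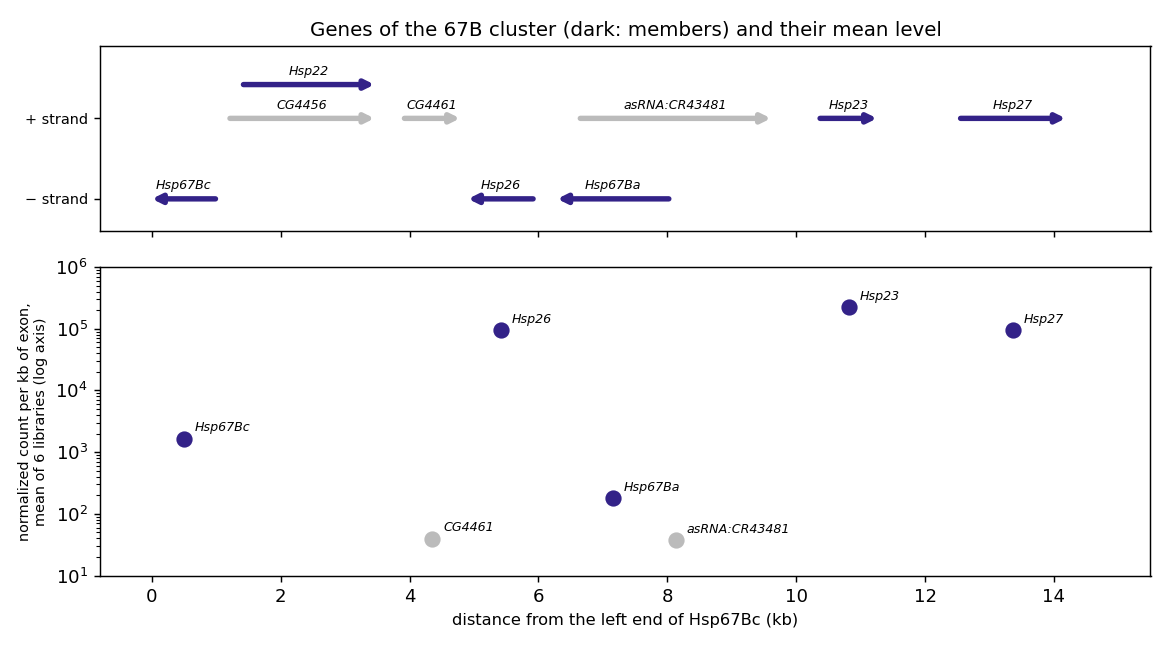
Upper panel, genes of the 67B cluster as arrows in the direction of transcription, by distance in kb from the left end of Hsp67Bc, with members dark and other genes grey. Lower panel, the mean normalized count per kb of exon over 6 libraries on a log axis, from 37.0 for asRNA:CR43481 to 223296 for Hsp23. Hsp22 and CG4456 did not pass the filter and have no point.

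Hsp23 (FBgn0001224), Hsp26 (FBgn0001225) and Hsp27 (FBgn0001226) encode the abundant cytosolic and nuclear small heat shock proteins of the cluster. Hsp26 had normalized counts of 156293, 86563 and 115521 in controls and 57266, 85931 and 68170 after Mad knockdown. Control replicate 1 was the highest, and the lowest control was just above the highest Mad knockdown library. Its mean was 119459 ± 35031 in controls and 70456 ± 14469 after Mad knockdown, which is 59.0% of control (SD, n = 3). Its log2 fold change of -0.74 (SE 0.241, 95% interval -1.32 to -0.16) had the largest size among the 7 tested members. The BH-adjusted p was 0.171 in limma, 0.175 in edgeR and 0.0107 in DESeq2. The change was -0.53 without control replicate 1 and -0.95 without control replicate 2. Per 100 counts of the muscle list Hsp26 had 3.72, 2.74 and 3.41 counts in controls and 2.73, 5.64 and 3.08 after Mad knockdown, with overlap (exact permutation p = 0.9, which the BH adjustment left at 0.9).

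Hsp23 had normalized counts of 294588, 177601 and 218352 in controls and 133799, 208081 and 151943 after Mad knockdown. The groups overlapped, since Mad knockdown replicate 2 was above control replicate 2. The difference was -0.48 on the log2 scale (SE 0.235, 95% interval -1.04 to 0.08; limma, BH-adjusted p = 0.342), and -0.28 without control replicate 1.

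Hsp27 had normalized counts of 202946, 144513 and 157084 in controls and 136368, 153695 and 138698 after Mad knockdown. Its libraries overlapped in the same way, over a narrower range. For this gene the difference was -0.22 on the log2 scale (SE 0.144, 95% interval -0.57 to 0.12; limma, BH-adjusted p = 0.476), and -0.078 without control replicate 1.

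These 3 genes ranked the libraries in much the same order. In each of them control replicate 1 was the highest, control replicate 3 the second and Mad knockdown replicates 3 and 1 the fifth and sixth. Control replicate 2 and Mad knockdown replicate 2 lay between these. The highest library exceeded the lowest 2.73-fold for Hsp26, 2.20-fold for Hsp23 and 1.49-fold for Hsp27. Among pairs of members the log2 profiles of Hsp23 and Hsp26, each centred on its mean over the 6 libraries, lay closest, with a root mean square difference of 0.141. Hsp27 was at 0.200 from Hsp23. It was at 0.306 from Hsp26, against 0.265 from stv and 0.304 from l(2)efl, which lie outside the cluster. By the same measure the 2 tested genes most like Hsp26 were CG3625 (FBgn0031245), at 0.0757, and edl (FBgn0023214), at 0.116. The normalized counts of CG3625, 28.0% of whose exon bases lie under antisense genes, went from 2732, 1366 and 1735 in controls to 948, 1299 and 1076 after Mad knockdown.

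Within a library the balance of Hsp26 and Hsp23 can be read without any scaling. The ratio of Hsp26 to Hsp23 counts was 0.531, 0.487 and 0.529 in controls and 0.428, 0.413 and 0.449 after Mad knockdown. The ratio was lower in all 3 Mad knockdown libraries than in any control. Neither gene was called in limma or edgeR, and DESeq2 called Hsp26. The exact two-sided permutation p was 0.1, the smallest possible, and 0.15 after BH adjustment over 3 such ratios, which were formed after the values were seen. The ratio of Hsp27 to Hsp23 overlapped between the groups (exact permutation p = 0.2).

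**Figure D3:**
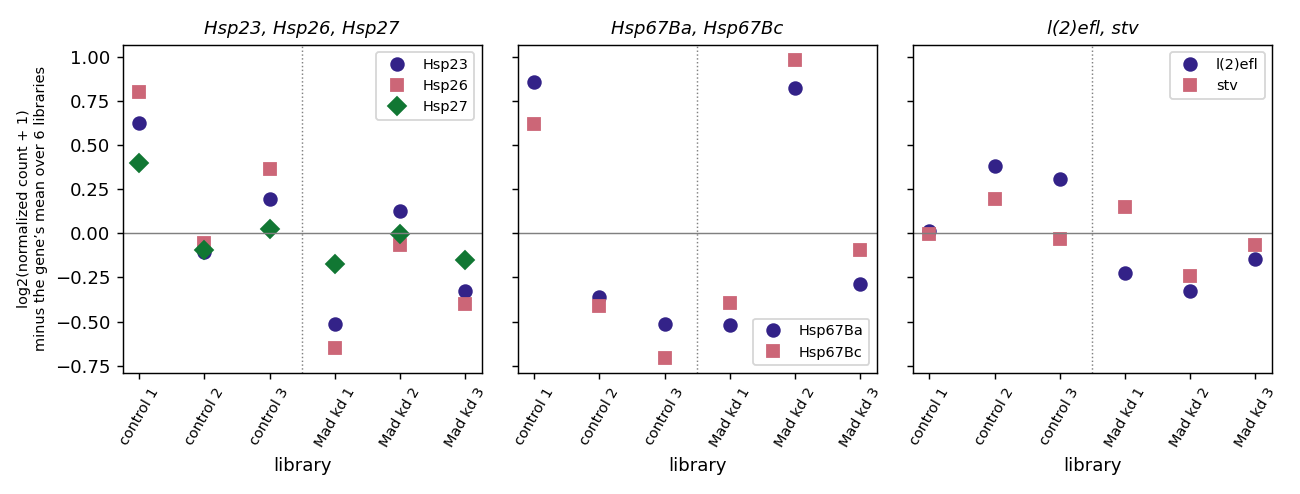
For each library, log2(normalized count + 1) minus the gene's mean over the 6 libraries, with Hsp23, Hsp26 and Hsp27 on the left, the Hsp67B genes in the middle and l(2)efl and stv on the right; a dotted line parts the groups. The left panel is highest in control replicate 1, the middle one in control replicate 1 and Mad knockdown replicate 2, and the right one has l(2)efl lower in all 3 Mad knockdown libraries.

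Hsp67Bc (FBgn0001229) encodes the small heat shock protein that works with starvin in autophagy, as HSPB8 works with BAG3 in human cells. Its normalized counts were 2289, 1117 and 913 in controls and 1132, 2948 and 1396 after Mad knockdown. One library of each group stood above the rest, and the groups overlapped. Its log2 fold change was 0.33 (SE 0.454, 95% interval -0.75 to 1.42; limma, BH-adjusted p = 0.754) and became -0.078 without Mad knockdown replicate 2.

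Hsp67Ba (FBgn0001227), a less studied gene of the family, had normalized counts of 520, 223 and 201 in controls and 200, 509 and 235 after Mad knockdown. The same 2 libraries as for Hsp67Bc were high. The means of the groups, 314 ± 178 and 314 ± 169 (SD, n = 3), were nearly equal, and the log2 fold change was 0.01 (95% interval -1.12 to 1.15). Its interval spans changes of more than 1 in both directions on the log2 scale, so the data say little on this gene. The ratio of Hsp67Ba to Hsp67Bc was 0.227, 0.199 and 0.220 in controls and 0.177, 0.173 and 0.168 after Mad knockdown, again with no overlap and the smallest exact permutation p of 0.1 (0.15 adjusted over the 3 ratios).

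Hsp22 (FBgn0001223), whose product enters mitochondria, was at 0 in all 6 libraries. In the annotation all of its exon bases lie under exons of CG4456, on the same strand. CG4456 itself had at most 8 counts in a library, but 90.1% of its own exon bases lie under Hsp22. Among 492 genes in the table whose exons lie wholly under those of other genes on the same strand, 488 were at 0 in every library, and among 130 covered only from the opposite strand 126 were. Of 11917 genes with no such overlap 17.1% were at 0. Genes wholly covered by others were thus mostly at 0 whichever strand covered them, and the 0 of Hsp22 was not read as absence of its RNA. The antisense RNA asRNA:CR43481 covers 75.9% of the exon bases of Hsp67Ba, and whether this lowers its count was not tested. Hsp23, Hsp26 and Hsp67Bc share no exon bases with other genes, and 97.0% of those of Hsp27 are free.

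Levels of the members were compared as normalized counts per kilobase of exon, as means over 6 libraries with SD. The highest were l(2)efl at 282838 ± 57875 and Hsp23 at 223296 ± 64988, which differed by less than their spread and changed places in control replicate 1 and Mad knockdown replicate 2. Next came Hsp27 at 95313 ± 15074 and Hsp26 at 94017 ± 35630, which could not be ordered either. Per kilobase these 4 genes each stood above at least 99% of the tested genes. Far below them were stv at 3118 ± 339 and Hsp67Bc at 1654 ± 817, which changed places in Mad knockdown replicate 2. Hsp67Ba was at 181 ± 89.7, or 754 ± 373 per kilobase of exon free of other genes. The members together took 0.743%, 0.600% and 0.668% of the normalized counts in controls and 0.465%, 0.542% and 0.507% after Mad knockdown. This summed share was lower in every Mad knockdown library (exact two-sided permutation p = 0.1, the smallest possible), and the 4 abundant genes make up nearly all of it.

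The other alpha-crystallin genes were taken as a list of 5, of which 4 were tested, with 0 called in limma and edgeR. DESeq2 called 1, CG4461, against 9.86% of the genes to which it gave an adjusted p-value. CG14207, a gene of the HSPB8 type, matched the abundant members in level, with 208896 ± 23250 per kilobase. Its normalized counts were 289075, 362913 and 293749 in controls and 315341, 361573 and 287496 after Mad knockdown. It overlapped between the groups, at a log2 fold change of 0.03 (95% interval -0.32 to 0.38). CG4461, which lies between Hsp22 and Hsp26 in the cluster, had 70.8, 40.6 and 63.8 normalized counts in controls and 3.74, 14.5 and 12.1 after Mad knockdown. The groups were well apart, but the log2 fold change of -2.55 (SE 0.527) had a BH-adjusted p of 0.0620 in limma and 0.0619 in edgeR. In DESeq2 it was 2.2e-04. With 5 rather than 1 added to the values before the log, limma called CG4461 lower. CG7409 and CG13133 overlapped, and CG43851 was at 0 in all libraries.

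The heat shock response list held 12 tested genes, of which 4 were called higher and 1 lower, where 1.02% and 1.57% of all tested genes were. edgeR and DESeq2 gave the same 5 calls. Hsp70Bc, Hsp70Bb, Hsp70Bbb and Hsp70Ba, copies of the inducible Hsp70 chaperone gene, rose by 2.69, 2.44, 1.91 and 1.58 on the log2 scale, with BH-adjusted p in limma from 0.00492 to 0.0121. The other 2 copies had lower means after Mad knockdown and were not called in any of the 3 tools. Hsp70Aa went from 60.1 ± 16.4 to 33.3 ± 15.2 normalized counts with no overlap (log2 fold change -0.91; limma, BH-adjusted p = 0.293), and Hsp70Ab differed by -0.38 with overlap (limma, BH-adjusted p = 0.632). The 6 copies are nearly identical, so how reads were divided among them is uncertain. Hsp68, another inducible member of the Hsp70 family, fell from 34164 ± 6154 to 17640 ± 508 (SD, n = 3; limma, BH-adjusted p = 0.0201). Its call was lost in each fit that left out 1 library except the one without control replicate 3, and that of Hsp70Bc without control replicate 2 or 3. Hsf, the gene of the heat shock factor, differed by 0.08 on the log2 scale (SE 0.0730; limma, BH-adjusted p = 0.630). Whether the small heat shock genes differed in response from the 4 Hsp70B copies was not tested, and the values stand side by side.

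**Figure D4:**
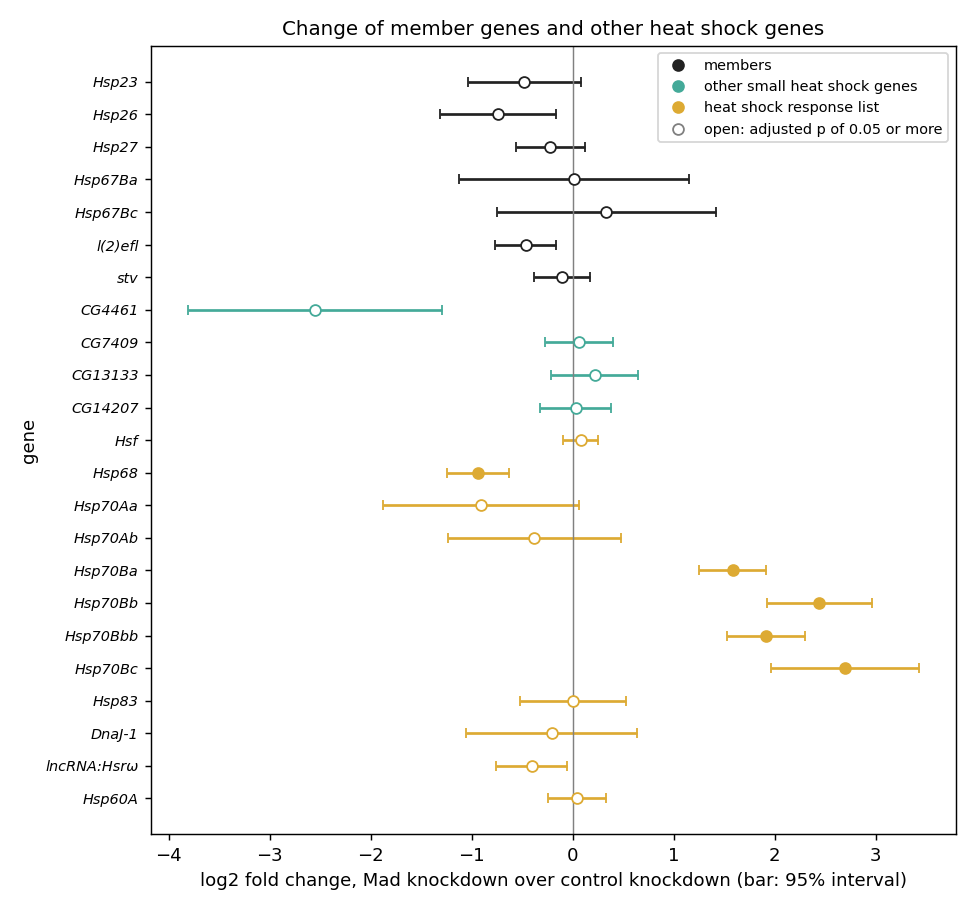
Log2 fold change of Mad knockdown over control knockdown with its 95% interval from limma, for the 7 tested members, the 4 other tested alpha-crystallin genes and the 12 tested genes of the heat shock response list; filled points have an adjusted p-value under 0.05. All points of members are open, and the filled ones are the 4 Hsp70B copies, above 0, and Hsp68, below 0.

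Partners of starvin and of the myosin chaperone were a list of 10 genes, of which limma and edgeR called 0, 2 had an unadjusted limma p under 0.05, and DESeq2 called 1, Mhc. Over all tested genes 19.0% had such a p-value, and DESeq2 called 9.86% of the genes to which it gave an adjusted p-value. The largest change of the partner list was that of Mhc, the muscle myosin heavy chain gene, with 531822, 222900 and 281777 in controls and 107706, 56156 and 139447 after Mad knockdown. Mhc differed by -1.77 on the log2 scale (SE 0.427; BH-adjusted p = 0.0873 in limma, 0.0925 in edgeR and 0.0116 in DESeq2), with no overlap. The median of this list was 0.0028. The cytosolic chaperonin and prefoldin, which fold actin and tubulin, were a list of 14 genes with 0 called in the 3 tools (1 with an unadjusted limma p under 0.05) and a median of -0.011, and the largest change was that of CCT7 at 0.17. In the ecdysone response list of 20 genes limma and edgeR called 0, with a median of 0.095. Of these 20 genes 6 had an unadjusted limma p under 0.05, against 19.0% of all tested genes. DESeq2 called 3 of the 20 higher (Eip75B, Blimp-1 and ImpE3, with BH-adjusted p from 0.00140 to 0.0279) and 1 lower (ftz-f1, BH-adjusted p = 0.0386). The summed share of this list was 0.647% to 0.666% in controls and 0.717% to 0.835% after Mad knockdown, which did not overlap. The most abundant gene in that sum, br, did overlap, from 288353 to 341737 in controls and from 332541 to 394148 after Mad knockdown. The part of the ecdysone response in the levels of the members was not tested. The largest change of that list was in ImpE2, at 46.4, 541 and 758 in controls and 698, 1215 and 5456 after Mad knockdown, with overlap.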

How the data were processed

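The authors deposited 1 table of normalized counts per gene, a signal with 1 column per library, and the file headers give FlyBase identifiers and symbols. The genome build was dm6, per the submitters' processing notes; aligner, counter, annotation and strand setting are not given in the sources used here. In each column 100% of the values above 0 were whole multiples of 1 step within 0.001 (as deposited, at most 0.300% were whole, the highest share being in Mad knockdown replicate 3, whose factor of 0.993 is nearest to 1), and the steps equalled the inverse of median-of-ratios size factors (0.820 to 1.10), so the deposited signal was read as counts divided by them. Coordinates and exon overlaps are from the Ensembl 115 annotation of BDGP 6.54, which has dm6 coordinates. No sequence table was at hand, so none is printed.

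limma 3.58.1 (R 4.3.3, eBayes with a trend) was run on log2(value + 1), Mad knockdown against control, over all genes that passed the filter, with no covariate; fold changes on this scale understate changes of low genes. The 95% intervals are from the same fit. The recovered counts were tested with edgeR 4.0.16 and DESeq2 1.42.0. Libraries with the same replicate number had deviations from their group means that correlated at -0.14, -0.066 and 0.037, so they were not treated as pairs. Named genes were Mad, all members, genes called in a list (at most 4) or its largest change, and the 2 profiles nearest to the member with the largest change. Hsp68, the other alpha-crystallin genes, Hsf, the ratios and all further genes named from the lists were added after values were seen. Members and lists were chosen with earlier results of these data known.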

Additional observations from a re-analysis of the deposited data

How the results depend on the processing

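Of 16 alternatives, 4 (both filters, no trend and the replicate block) cannot move a member's log2 fold change, and 6 others with all libraries moved it by at most 0.024. The signs were therefore tried mainly by the 6 fits without 1 library, in which Hsp23 ran from -0.66 to -0.28, Hsp27 from -0.32 to -0.078 and stv from -0.21 to -0.0096. The number of members called was 0 in 15 alternatives and 2 in DESeq2 (l(2)efl and Hsp26). Over all alternatives the log2 fold changes ran from -0.58 to -0.39 for l(2)efl and from -0.95 to -0.53 for Hsp26, with limma, edgeR and DESeq2 adjusted p-values from 0.00209 to 0.285 and from 0.0107 to 0.351. The sign of Hsp67Ba turned without control replicate 2 (-0.17), control replicate 3 (-0.24) or Mad knockdown replicate 2 (-0.40), and that of Hsp67Bc without Mad knockdown replicate 2 (-0.078). When 1 library was left out Hsp67Ba ran from -0.40 to 0.44 and Hsp67Bc from -0.078 to 0.72. Over all tested genes the number called was 268, against 138 without a trend, 998 in DESeq2, and from 43 to 193 when 1 library was left out. With the replicate number as a block it was 117, and 0 members were called. The other settings gave from 224 to 287. In the muscle list edgeR called 2 genes and DESeq2 11, and limma 1 without a trend and 1 with the replicate block. Hsp68 also lost its call without a trend, and Mad did without a trend (adjusted p = 0.0981) and with the replicate block (0.0787). Fits without 1 library have fewer samples by construction, and for the others the cause was not tested. Depth does not limit the 4 abundant members, and for Hsp67Ba and Hsp67Bc the spread between libraries does.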
